A study of Mus musculus with 4 samples.

Results

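This report describes 40 genes of motile cilia and of the ependyma, chosen by exact gene symbol, in RNA-seq of cultured mouse astrocytes. Of the 40 symbols, 39 were listed among the 25393 genes of the expression table, and 38 of these had enough reads to be tested among 22094 genes. *Dnai1* found no match by symbol. Its older symbol *Dnaic1* was listed and was kept outside the count, with 163 and 73.6 normalized counts in WT against 117 and 16.2 in the libraries labelled KO (log2 fold change −1.30, limma adjusted p = 0.615).

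Motile cilia are beating, hair-like cell extensions built on a microtubule core, the axoneme. Outer and inner dynein arms along the microtubule doublets are the motors, and radial spokes, a central pair of microtubules and nexin links between doublets control the beat. In the brain these cilia line the ventricles on ependymal cells, which arise from radial glia and share genes with astrocytes, and move the cerebrospinal fluid. Epithelial cells of the choroid plexus are also multiciliated. A small set of regulators starts the programme: Gemc1 and multicilin start it and, with Myb and cyclin O, prepare the many basal bodies, while Foxj1 and the RFX factors switch on the axoneme genes.

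The study examined what loss of Tet1, an enzyme that oxidises 5-methylcytosine in DNA, does to astrocytes. Cells came from cortex and hippocampus of untreated C57BL/6 mice at postnatal day 1, Tet1 WT or constitutive *tet1*-/-, so the deletion was not limited to astrocytes. Each isolation pooled 2 mice, and the cells grew for about 7 days, were shaken at 260 rpm to remove loose cells and were collected 24 h later. The data held 2 WT libraries and 2 libraries of the *tet1*-/- genotype, with 18749610 to 22673555 reads on genes each.

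*Tet1* did not separate the labels. It stood at 266 and 121 normalized counts in WT replicates 1 and 2 and at 173 and 463 in the others (log2 fold change 0.66, SE 0.65, adjusted p = 0.691). A count over the whole gene cannot show whether the targeted exons were transcribed, so the latter are called the libraries labelled KO throughout. The study itself reports *Tet1* mRNA as almost undetectable in its knockout astrocytes, and less oxidised methylcytosine in their DNA by dot blot. It does not say whether the cultures checked in that way were the ones sequenced. A normalized count is the number of reads on a gene divided by a size factor for its library. *Xist*, which is transcribed from the inactive X chromosome, stood at 8.54 and 0.920 normalized counts in the WT pair and at 2897 and 13367 in the other pair, so a difference of sex and one of label cannot be told apart. *Gfap*, *Slc1a3* and *Aldoc*, the highest per length of 10 astrocyte markers, were read in all 4 libraries. *Gjb6*, of the same list, had 64.0 and 33.1 normalized counts in WT against 11.8 and 0. The study describes its RNA-seq cultures as biological repeats, and names more of them per genotype than the 2 libraries per label available here. The labels do not say how the isolations behind these libraries were separated, so p-values measure only the spread between these libraries.

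Most of the motile cilia genes were read in the WT cultures. At least 3 reads were found for 36 and 37 of the 39 listed genes in WT replicates 1 and 2. Lengths differ between genes, so levels were compared as fragments per kilobase of gene, scaled to a fixed number of reads (FPKM), computed from the recovered reads. By this measure 25 and 24 genes reached 1 FPKM in WT, against 18 and 7 in labelled KO replicates 1 and 2. The median FPKM of the 39 genes was 2.14 and 1.46 in WT, 0.670 in labelled KO replicate 1 and 0.138 in labelled KO replicate 2. *Foxj1*, at chr11:116330704-116335399 in mm10, was the most abundant member, with 116 and 180 FPKM in WT. *Ccdc153* (0.524 and 0.650 FPKM) and *Tmem212* (0.223 and 0.123 FPKM), known mainly from ependymal cells, were low in WT. The remaining genes grouped with them as ependymal were above 1 FPKM in both WT libraries. These were *Rarres2* (15.84 and 12.02 FPKM), *Pifo* (3.27 and 5.56 FPKM) and *Ak7* (2.14 and 1.07 FPKM). The genes were chosen by name, and no cell type was assigned from them. In bulk RNA, fewer cells of a type and less RNA per cell cannot be told apart.

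**Figure D1:**
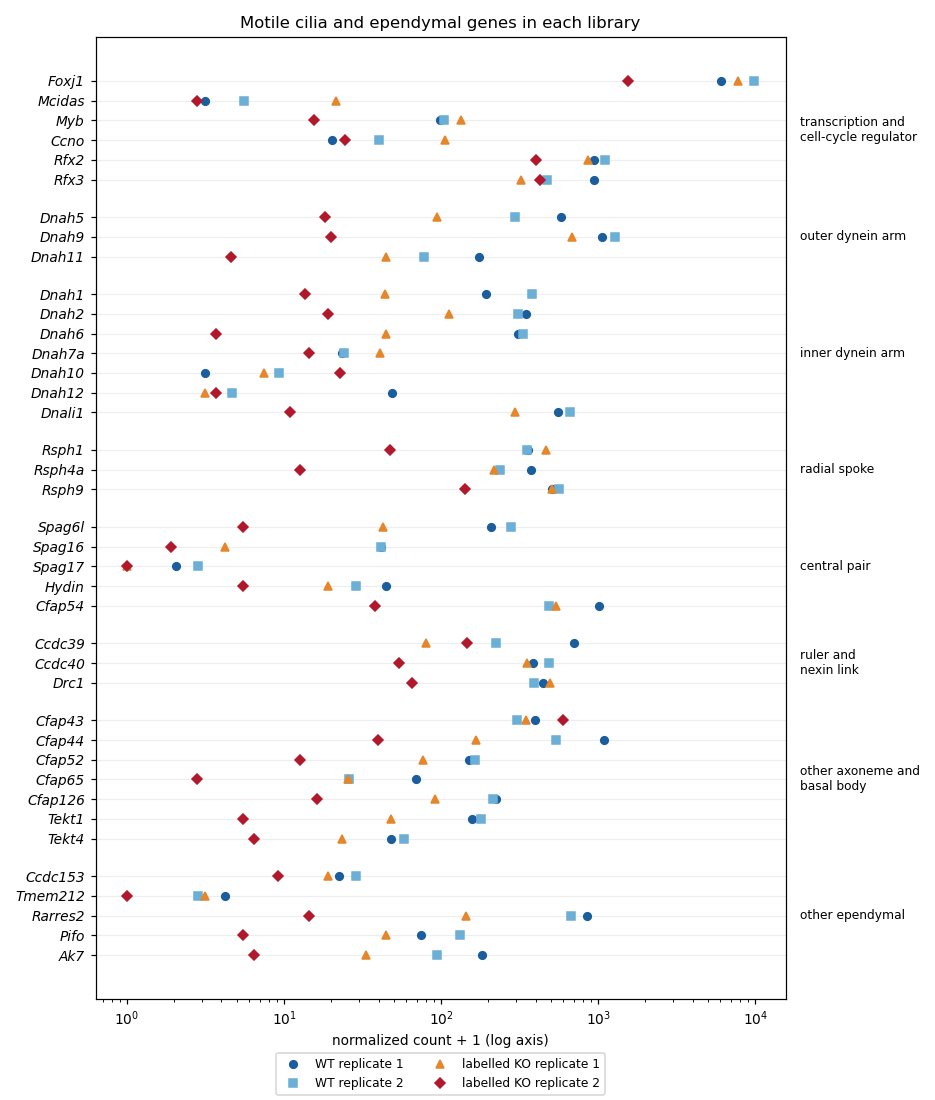
Normalized count plus 1 (log axis) of each of the 39 listed genes in each library, grouped by role; each symbol is 1 library. Labelled KO replicate 2 (diamonds) lies below both WT libraries for 35 of the 38 tested genes, while labelled KO replicate 1 (triangles) lies below both for 27.

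Promoters are shown here because Foxj1 and RFX factors act on the promoters of axoneme genes, and *Foxj1*, *Rfx2* and *Rfx3* are among the members. RefSeq promoters (GRCm38.p6) were at hand for 33 of the 39 listed genes, not for *Foxj1*, *Rsph1*, *Rsph4a*, *Cfap54*, *Rarres2* or *Cfap65*. The motifs were searched on both strands in the 250 bases before each start. The RFX half-site GTTGCC was in the promoters of 12 of 33 members (36.4%), against 11.8% of 27025 genes. A second form, GTTGCTA, was in 6 (18.2%) against 3.71%, the full X-box, with 2 facing half-sites, in 3 (9.09%) against 1.24%, and the forkhead motif GTAAACA in 2 (6.06%) against 3.54%. A full X-box can overlap a half-site, as in *Pifo*. The 150 bases before the start are given below for 4 members that were lower in both libraries labelled KO and for the 2 that were above both WT libraries in labelled KO replicate 2, with motif matches in capitals. These 6 were picked with their values known. All 4 of the lower ones hold an RFX match, so they do not show how common a match was among the lower members. Each reads 5′ to 3′ on the strand of its gene: *Spag16* chr1:69826820-69826969 (plus), *Cfap44* chr16:44394649-44394798 (plus), *Tekt1* chr11:72361883-72362032 (minus), *Pifo* chr3:106001498-106001647 (minus), *Dnah10* chr5:124724935-124725084 (plus) and *Cfap43* chr19:47837362-47837511 (minus). *Tekt1* and *Pifo* each have another annotated start that is not printed.
Spag16: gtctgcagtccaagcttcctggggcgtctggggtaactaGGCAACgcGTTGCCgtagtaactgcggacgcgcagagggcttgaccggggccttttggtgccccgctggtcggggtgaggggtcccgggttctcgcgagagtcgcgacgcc
Cfap44: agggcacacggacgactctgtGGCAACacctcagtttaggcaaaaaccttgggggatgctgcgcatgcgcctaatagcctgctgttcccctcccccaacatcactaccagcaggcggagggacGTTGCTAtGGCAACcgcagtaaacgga
Tekt1: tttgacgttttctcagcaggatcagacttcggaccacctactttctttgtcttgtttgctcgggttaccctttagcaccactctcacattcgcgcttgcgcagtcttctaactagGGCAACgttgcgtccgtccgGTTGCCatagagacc
Pifo: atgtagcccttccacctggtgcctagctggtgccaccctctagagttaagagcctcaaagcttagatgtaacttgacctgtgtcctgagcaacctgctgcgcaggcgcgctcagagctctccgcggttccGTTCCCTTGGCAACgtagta
Dnah10: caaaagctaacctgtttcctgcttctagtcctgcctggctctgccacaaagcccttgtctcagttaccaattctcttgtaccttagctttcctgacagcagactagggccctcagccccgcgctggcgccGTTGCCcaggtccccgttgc
Cfap43: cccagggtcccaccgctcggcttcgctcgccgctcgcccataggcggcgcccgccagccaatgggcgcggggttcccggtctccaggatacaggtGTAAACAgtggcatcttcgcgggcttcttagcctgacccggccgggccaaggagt
*Spag16* and *Tekt1* hold half-sites on both strands, the capitals of *Pifo* are a full X-box, and those of *Cfap43* are the forkhead motif. *Cfap44* holds both half-site forms. Its GTTGCTA and the GGCAAC next to it face each other as in an X-box, but the pattern searched did not match them. *Dnah10*, with a positive log2 fold change, holds a half-site as well. The half-site GTTGCC was in 3 of the 14 members with a promoter that were lower at an unadjusted p under 0.05. These 3 are the printed *Spag16*, *Cfap44* and *Tekt1*. It was in 9 of the other 19, *Pifo* and *Dnah10* among them. A match is a run of letters, and binding was not measured.

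Most of the genes were lower in the libraries labelled KO than in WT, but with 2 libraries per label none passed the adjusted test. The log2 fold change was negative for 33 of 38 genes, against 53.7% of all genes tested, and the median was −2.22, against −0.07 over all genes. Both libraries labelled KO lay below both WT libraries for 27 genes (71.1%; 25.4% of all genes), and above both for 0 (22.5% of all genes). By limma 15 genes were lower at an unadjusted p under 0.05 (39.5%; 9.18% of all genes) and 0 were higher (4.54% of all genes). The 15 were *Dnah5*, *Dnah11*, *Dnah1*, *Dnah2*, *Dnah6*, *Spag6l*, *Spag16*, *Ccdc39*, *Cfap44*, *Cfap52*, *Cfap126*, *Tekt1*, *Tekt4*, *Rarres2* and *Ak7*. At a limma adjusted p under 0.05 there were 0 members and 0% of all genes, the lowest adjusted p of a member being 0.173 for *Spag16*. edgeR on the recovered reads also gave 0 adjusted calls (0% of all genes), with 11 members lower at an unadjusted p under 0.05 (8.14% of all genes) and 0 higher (4.23%). DESeq2 called 8 of 37 members lower (4.8% of the genes with an adjusted p) and 0 higher (1.69%), namely *Dnah5*, *Dnah1*, *Dnah6*, *Spag6l*, *Spag16*, *Cfap44*, *Rarres2* and *Ak7*. An exact two-sided permutation test of 2 against 2 libraries cannot give a p below 0.33.

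The size of the difference varied with the libraries included. Without labelled KO replicate 2 the median log2 fold change was −0.97 and 11 genes were lower at an unadjusted p under 0.05 (9.28% of all genes). Without labelled KO replicate 1 the median was −3.34 and 28 genes were lower (13.7%). Without WT replicate 1 only *Spag16* was lower (3.9%), and without WT replicate 2 *Dnah12*, *Spag16* and *Ccdc39* were (4.06%), the medians being −1.79 and −2.41. In each of these fits the lone library was assumed to vary like the pair of the other label.

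**Figure D2:**
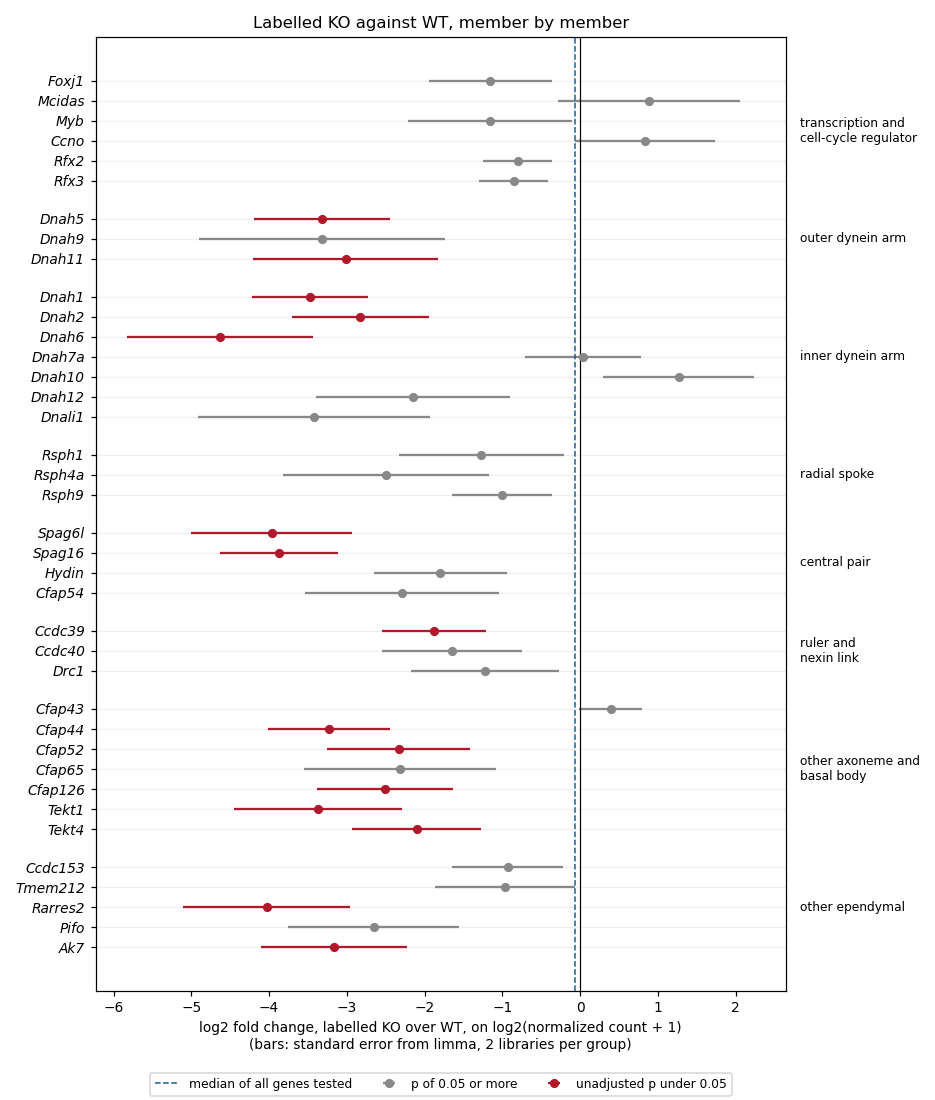
log2 fold change of each of the 38 tested genes, libraries labelled KO over WT, on the log2(normalized count + 1) scale, with bars for the limma standard error (2 libraries per label). The 15 genes at an unadjusted p under 0.05 (red) all lie to the left of the median of all genes (dashed line, −0.07), and 5 genes lie to the right of 0.

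The 2 libraries labelled KO also differed from each other in most of these genes. Labelled KO replicate 2 was more than 2-fold below labelled KO replicate 1 for 33 of 38 genes (86.8%), against 16.6% of all genes, and more than 2-fold above it for *Dnah10* alone, against 21.7%. It was more than 4-fold below for 24 genes, against 5.85%. The median log2 difference was −2.43 over the members and 0.06 over all genes. The range ran from −5.09 for *Dnah9* to 1.61 for *Dnah10*, and *Rfx3*, *Dnah12*, *Ccdc39* and *Cfap43* lay between these without passing 2-fold, each with a positive difference. Among genes with a mean of at least 10, 31 of 35 members were more than 2-fold lower (15.5% of such genes), 23 more than 4-fold lower (5.54%) and 0 more than 2-fold higher (17.1%). This is a difference between 2 single libraries and has no replicate check.

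The WT libraries did not show such a shift. WT replicate 2 was more than 2-fold below WT replicate 1 for 6 genes (13.7% of all genes), which were *Dnah11*, *Dnah12*, *Cfap54*, *Ccdc39*, *Cfap44* and *Cfap65*. It was more than 2-fold above for *Ccno* and *Dnah10* (9.99% of all genes), and more than 4-fold below for *Dnah12* (3.37%). Among genes with a mean of at least 10, 6 of 35 members were more than 2-fold lower (7.98% of such genes), 1 more than 4-fold lower (1.01%) and 1 more than 2-fold higher (7.08%). The median log2 difference over the members was 0.02, against 0.04 over all genes.

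**Figure D3:**
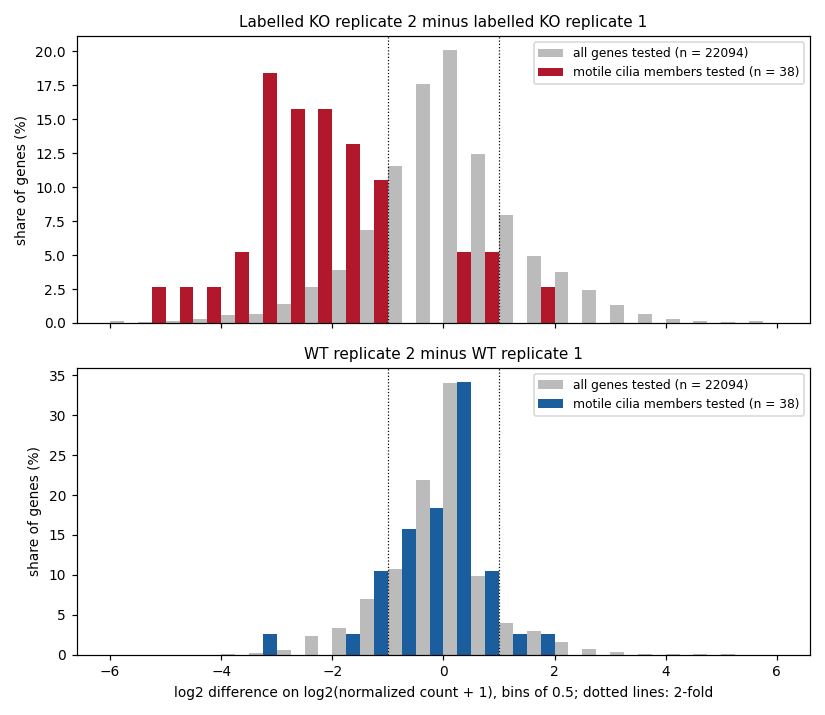
Share of genes (%) in bins of the log2 difference between replicate 2 and replicate 1, for the libraries labelled KO (top) and WT (bottom); coloured bars are the 38 tested members, grey bars all 22094 genes tested, and dotted lines mark 2-fold. In the upper panel most members lie left of the lower dotted line (33 of 38, median −2.43), while in the lower panel they centre on 0.02.

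Measured against WT, labelled KO replicate 1 lay below both WT libraries for 27 members (40.8% of all genes) and above both for 6 (37.3%). These 6 were *Mcidas*, *Myb*, *Ccno*, *Dnah7a*, *Rsph1* and *Drc1*. Labelled KO replicate 2 lay below both for 35 (41.2% of all genes) and above both for *Dnah10* and *Cfap43* (38.9%). The median member stood at 49.7% of the WT mean in labelled KO replicate 1 and at 7.24% in labelled KO replicate 2, against 91.8% and 95.9% over all genes. Among the 32 tested members that are not regulators these medians were 45.7% and 4.86%.

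**Figure D4:**
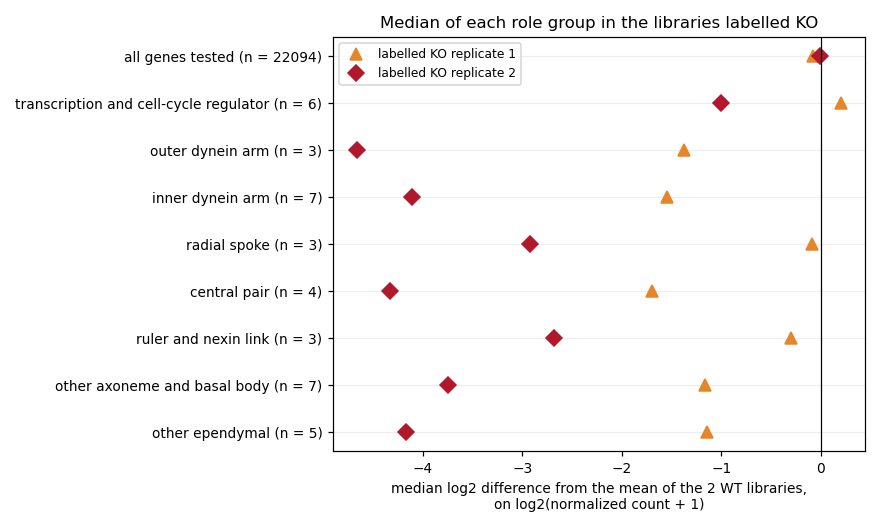
Median log2 difference from the mean of the 2 WT libraries, by role group, for labelled KO replicate 1 (triangles) and replicate 2 (diamonds), with the number of genes tested in brackets. Replicate 2 lies left of replicate 1 in every role group, with medians down to −4.66 for the outer dynein arm, and both lie near 0 over all genes.

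The regulators had the highest medians of the role groups in both libraries labelled KO, at 115% and 46.3% of the WT mean in replicates 1 and 2. Of the 6, 0 were at an unadjusted p under 0.05 (9.18% of all genes lower and 4.54% higher). With 6 genes this count cannot be told from those shares. *Foxj1* had 6065 and 9871 normalized counts in WT against 7787 and 1549 in labelled KO replicates 1 and 2 (log2 fold change −1.16, SE 0.79, adjusted p = 0.567). Replicate 1 lay between the WT libraries and replicate 2 below them. The ratio of the libraries labelled KO was 5.03 (95% interval 4.77 to 5.30, for counting error only). Without labelled KO replicate 2 the log2 fold change of *Foxj1* was 0.01.

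The 3 genes that act upstream in basal body formation were highest in labelled KO replicate 1. *Mcidas*, which encodes multicilin, had 2.13 and 4.60 normalized counts in WT against 20.3 and 1.80. *Ccno*, which encodes cyclin O, had 19.2 and 39.5 against 105 and 23.4. *Myb* had 97.1 and 104 in WT against 133 and 14.4. Thus the replicates labelled KO lay on opposite sides of both WT libraries for *Myb*. *Mcidas* was at 2 reads in both WT replicate 1 and labelled KO replicate 2, under the limit of 3 reads, so their order cannot be read. The sign of the log2 fold change of each of these genes turned on a single library. Without labelled KO replicate 1 it was −0.58 for *Mcidas* and −0.23 for *Ccno* (0.88 and 0.83 with all libraries), and without replicate 2 it was 0.40 for *Myb* (−1.16 with all libraries). The 19 reads of *Mcidas* in replicate 1 against 2 reads in replicate 2 give a ratio of 11.3 (2.72 to 99.9).

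The RFX members *Rfx2* and *Rfx3*, whose products bind the X-box, were lower in both libraries labelled KO than in either WT library (25.4% of all genes). Between the libraries labelled KO they differed less than the regulators above. *Rfx2* had 945 and 1110 normalized counts in WT against 857 and 401 (log2 fold change −0.80, SE 0.44, adjusted p = 0.478). *Rfx3* had 946 and 474 against 322 and 425 (−0.86, SE 0.44, adjusted p = 0.457). For *Rfx3* labelled KO replicate 2 was the higher, with a ratio of replicate 1 to replicate 2 of 0.759 (0.655 to 0.879). RFX factors of the wider regulator list went both ways. *Rfx1* was above both WT libraries in both libraries labelled KO (430 and 480 against 541 and 609; 22.5% of all genes). *Rfx4* was below both (1477 and 1981 against 1338 and 466).

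The outer dynein arm heavy chains, the main motors of the beat, were at a median of 35.1% and 2.88% of the WT mean in labelled KO replicates 1 and 2. *Dnah9* had 1056 and 1274 normalized counts in WT against 679 and 18.9 (log2 fold change −3.32, SE 1.58, adjusted p = 0.433). Its ratio between the libraries labelled KO, 35.9 (23.3 to 58.3), was the largest of the members with more than 3 reads in both. *Dnah5* had 578 and 292 against 93.1 and 17.1 (−3.32, SE 0.88, adjusted p = 0.245), and *Dnah11* 174 and 76.3 against 43.9 and 3.61 (−3.02, SE 1.19, adjusted p = 0.363). For all 3 genes both libraries labelled KO lay below both WT libraries (25.4% of all genes).

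The inner dynein arm genes split. *Dnah6* had 306 and 332 normalized counts in WT against 43.9 and 2.70 in the libraries labelled KO (log2 fold change −4.63, SE 1.20, adjusted p = 0.237), the lowest value being 3 reads. The ratio of WT to labelled KO was 14.9 (10.9 to 20.7), from pooled reads. *Dnah1* had 192 and 381 against 42.8 and 12.6 (−3.47, SE 0.75, adjusted p = 0.195). Both are heavy chains of single-headed inner arms, and their labels did not overlap. *Dnah2*, a heavy chain of the double-headed inner arm, had 347 and 310 against 111 and 18 (−2.83, SE 0.88, adjusted p = 0.291). *Dnali1*, the light intermediate chain, had 557 and 662 against 293 and 9.91 (−3.42, SE 1.49, adjusted p = 0.397). In these 4 genes both libraries labelled KO lay below both WT libraries (25.4% of all genes), and replicate 2 below replicate 1. *Dnali1* shares exon sequence with *Gnl2* on the other strand, which had 755 and 774 against 655 and 1079, and *Dnah11* with *Cdca7l*, which had 139 and 181 against 85.6 and 191. An exon overlap with another gene, on either strand, was found for 15 of the 39 listed members and none for 24.

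The others of this group were scarcely read. *Dnah10*, the partner heavy chain of *Dnah2* in the double-headed arm, had 2.13 and 8.28 normalized counts in WT against 6.42 and 21.6, with overlapping labels (1.27, SE 0.97, adjusted p = 0.607). *Dnah7a* had 22.4 and 23.0 against 39.6 and 13.5 (0.04, SE 0.75, adjusted p = 0.990), and its sign changed to −0.71 without labelled KO replicate 1. *Dnah12* had 48.0 and 3.68 against 2.14 and 2.70 (−2.15, SE 1.25, adjusted p = 0.50), so WT replicate 1 stood apart from the other 3 libraries; the libraries labelled KO held 2 and 3 reads, and the ratio of WT to labelled KO was 9.89 (3.96 to 31.8). Per length these genes were at 0.200 FPKM or less in every library. *Dnah7a* has near copies, and reads may be split between them: *Dnah7b* had 665 and 282 against 64.2 and 21.6, and *Dnah7c* 29.9 and 19.3 against 2.14 and 11.7.

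The radial spoke head genes were near the WT level in labelled KO replicate 1, at a median of 94.3%, and at 12.9% in replicate 2. *Rsph1* had 357 and 353 normalized counts in WT against 462 and 46.0 (log2 fold change −1.27, SE 1.06, adjusted p = 0.631), and 0.38 without labelled KO replicate 2. *Rsph9* had 509 and 563 against 505 and 141 (−1.0, SE 0.64, adjusted p = 0.541). *Rsph4a* had 370 and 236 against 216 and 11.7 (−2.50, SE 1.32, adjusted p = 0.468). None of these 3 genes reached an unadjusted p under 0.05 (9.18% of all genes lower and 4.54% higher), which 3 genes cannot tell from those shares.

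Of 4 tested central pair genes, 3 were lower in both libraries labelled KO than in either WT library (25.4% of all genes). The medians over the 4 were 34.1% and 3.59% of the WT mean in labelled KO replicates 1 and 2. *Spag16* had 40.5 normalized counts in each WT library against 3.21 and 0.901, which were 3 reads and 1 read (log2 fold change −3.87, SE 0.76, adjusted p = 0.173). The ratio of WT to labelled KO was 20.7 (7.78 to 77.7). *Spag6l* had 206 and 278 against 41.7 and 4.51 (−3.97, SE 1.03, adjusted p = 0.241). Both genes encode proteins of the central apparatus, and in neither did the labels overlap. The near copy *Spag6* was low in all libraries, at 7.49 to 11.7. *Cfap54* had 1005 and 486 against 537 and 37.0, so replicate 1 lay between the WT libraries. *Hydin* had 43.7 and 27.6 against 18.2 and 4.51. Both encode very large proteins of the central pair projections, and in both genes replicate 2 was the lowest library. *Spag17* was listed with 1 and 2 reads in WT and none in the libraries labelled KO, within a limit of 3 reads, and gives no fold.

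Ccdc39 and Ccdc40 form the ruler that sets the spacing of arms and spokes along the doublet, and Drc1 is part of the nexin link. Their medians were 80.8% and 15.3% of the WT mean in labelled KO replicates 1 and 2. *Ccdc40* had 383 and 486 normalized counts in WT against 351 and 53.2 (log2 fold change −1.65, SE 0.90, adjusted p = 0.474). Its partner *Ccdc39* had 701 and 223 against 79.2 and 144 (−1.88, SE 0.67, adjusted p = 0.338). *Drc1*, of the nexin-dynein regulatory complex, had 447 and 388 against 492 and 64.0 (−1.22, SE 0.95, adjusted p = 0.612), and 0.24 without labelled KO replicate 2. The ruler partners thus ordered the libraries labelled KO differently. The ratio of replicate 1 to replicate 2 was 6.60 (4.99 to 8.87) for *Ccdc40* and 0.549 (0.411 to 0.728) for *Ccdc39*. *Ccdc39* overlaps exons of *Ttc14* on the other strand, and *Ttc14* had 2398 and 807 against 212 and 1490 normalized counts. The use of strand in counting was not given in the sources used here, so reads of the pair cannot be told apart.

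Of 7 other axoneme and basal body genes, 5 were lower at an unadjusted p under 0.05 (9.18% of all genes). *Cfap44*, of the tether that holds the double-headed inner arm, had 1092 and 536 normalized counts in WT against 167 and 38.8 (log2 fold change −3.23, SE 0.78, adjusted p = 0.222). Its partner *Cfap43* had 394 and 303 against 347 and 594 (0.39, SE 0.41, adjusted p = 0.704), the highest value being in labelled KO replicate 2. *Cfap43* was the only member with exons that overlap other genes on its own strand, *Itprip* and *Gm22240*, so its reads may include theirs. *Tekt1* had 157 and 179 against 47.1 and 4.51. *Tekt4* had 46.9 and 57.0 against 22.5 and 5.41. Tektins are filaments of the doublet wall, and both genes were at an unadjusted p under 0.05. *Cfap52*, which lies inside the doublet, had 150 and 164 against 76.0 and 11.7. *Cfap126*, which is needed for basal body docking, had 223 and 213 against 89.9 and 15.3. *Cfap65* had 68.3 and 24.8 against 24.6 and 1.80. Apart from *Cfap43* each of these genes was lower in both libraries labelled KO than in either WT library (25.4% of all genes). Each was also lower in replicate 2 than in replicate 1.

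Of the remaining ependymal genes, *Rarres2*, which encodes the secreted protein chemerin, had 842 and 666 normalized counts in WT against 143 and 13.5 (log2 fold change −4.03, SE 1.08, adjusted p = 0.249). The ratio of WT to labelled KO was 10.2 (8.66 to 12.2). *Rarres2* overlaps *Lrrc61* on the other strand, which had 281 and 359 against 474 and 212. *Ak7*, an adenylate kinase of cilia, had 180 and 93.8 against 32.1 and 5.41 (−3.17, SE 0.94, adjusted p = 0.277). *Pifo*, which acts in cilium disassembly, had 73.6 and 131 against 43.9 and 4.51 (−2.66, SE 1.10, adjusted p = 0.377). Both libraries labelled KO lay below both WT libraries for these 3 genes (25.4% of all genes). *Ccdc153* had 21.3 and 27.6 against 18.2 and 8.11. *Tmem212* was at 3, 2, 2 and 0 reads, within the limit of 3 reads, so no fold is given and its fitted value enters only the plot and the counts over 38 genes.

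Other genes of the pathway were taken from lists. Of 66 further motile axoneme and assembly genes tested, 26 were lower at an unadjusted p under 0.05 (9.18% of all genes), 0 were higher, and the median log2 fold change was −1.55. Labelled KO replicate 2 was more than 2-fold below replicate 1 for 38 of them (16.6% of all genes) and above it for 2 (21.7%). *Cfap70* had 116 and 64.4 normalized counts in WT against 5.35 and 2.70 (−4.17, SE 0.71, adjusted p = 0.148), *Wdr66* 511 and 542 against 69.6 and 15.3 (−3.96, SE 0.76, adjusted p = 0.169), and *Drc7* 580 and 412 against 167 and 9.01 (−3.58, SE 1.31, adjusted p = 0.345). *Nme5* had 477 and 580 against 527 and 50.5, with replicate 1 between the WT libraries and replicate 2 below them. *Dnal4* (1174 and 1184 against 1514 and 1326) and *Dnaaf5* (762 and 697 against 840 and 935) were above both WT libraries in both libraries labelled KO, by less than their SE in the fit (log2 fold changes 0.27 and 0.28, SE 0.28 and 0.29). The count of lower genes was 4 without WT replicate 1 (3.9% of all genes), 9 without WT replicate 2 (4.06%), 41 without labelled KO replicate 1 (13.7%) and 17 without labelled KO replicate 2 (9.28%), where the median was −0.81. It was 15 after quantile normalization.

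Fewer of the wider regulators and the primary cilium genes were past the unadjusted threshold. Of 15 regulators of multiciliation tested, 2 were lower and 0 higher at an unadjusted p under 0.05 (9.18% and 4.54% of all genes), with a median of 0.18. A count this small is near the share over all genes, and the values of both genes are given as a description. *Gmnc*, which encodes Gemc1, had 3142 and 566 normalized counts in WT against 106 and 12.6 (−5.13, SE 1.23, adjusted p = 0.219; DESeq2 adjusted p = 5.39e-05). *Six3* had 624 and 1036 against 214 and 276 (−1.72, SE 0.39, adjusted p = 0.208; DESeq2 adjusted p = 0.0144). *Tfdp1*, *E2f4* and *Numb*, which act in many cell types, had log2 fold changes of 0.66, 0.38 and −0.30. Without labelled KO replicate 1 the median over these regulators was −0.86. Of 42 primary cilium and intraflagellar transport genes, 2 were lower and 0 higher (9.18% and 4.54% of all genes), with a median of −0.35, so the share called lower was under that over all genes. *Kif17*, a motor, had 122 and 124 against 55.7 and 13.5 (−2.11, SE 0.77, adjusted p = 0.345), and *Ift80* 2198 and 1677 against 1094 and 685 (−1.15, SE 0.36, adjusted p = 0.294). The abundant genes *Arl3*, *Dync2li1* and *Ift20* had log2 fold changes of −0.02, −0.87 and 0.43. Without labelled KO replicate 2 the median over the primary cilium genes was 0.14.

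**Figure D5:**
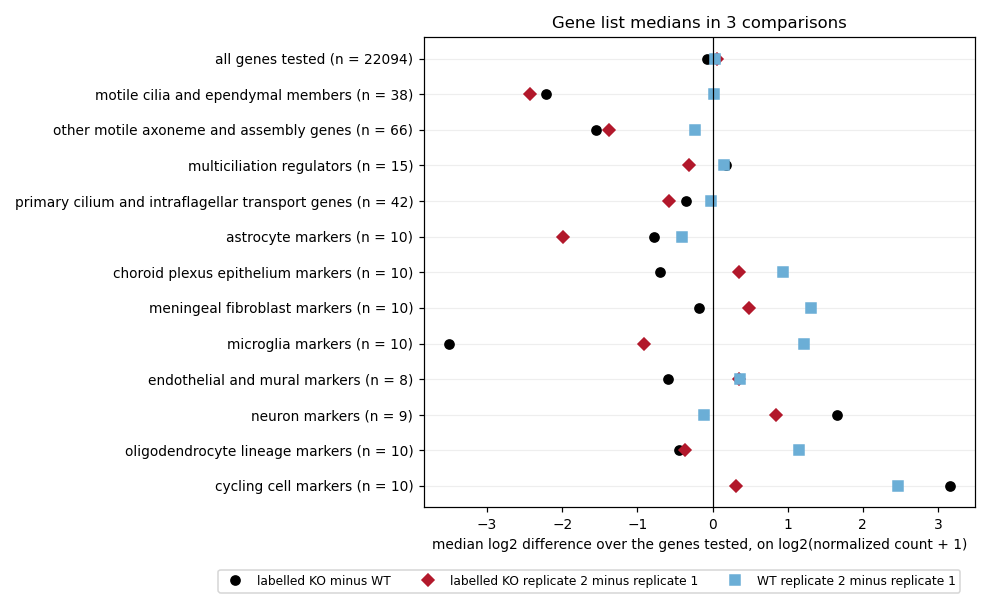
Median log2 difference of each gene list in 3 comparisons: labelled KO minus WT (circles), labelled KO replicate 2 minus replicate 1 (diamonds) and WT replicate 2 minus replicate 1 (squares). The members lie at −2.22, −2.43 and 0.02, the further axoneme genes at −1.55, −1.37 and −0.23, and all genes near 0 in each comparison.

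Markers of other cells and of the cell cycle also differed between these libraries, and their part in the results above was not tested. The 10 astrocyte markers summed to 156150 and 155190 normalized counts in WT against 256730 and 45880, with 3 lower and 0 higher at an unadjusted p under 0.05. Over all genes 9.18% were lower and 4.54% higher at that threshold, which holds for each such count of markers here. *Gfap* had 58004 and 67297 in WT against 174850 and 9945, so the library lowest in cilia genes was also lowest in *Gfap*. *Gfap* was most of the astrocyte sum in labelled KO replicate 1. The difference between the libraries labelled KO was not limited to *Gfap* or to cilia genes. Replicate 2 was more than 2-fold below replicate 1 for 7 of the 10 astrocyte markers (16.6% of all genes) and above it for 0 (21.7%). The median log2 difference was −1.99 over these markers, against −2.43 over the cilia members. *Aldh1l1*, *Slc1a2*, *Slc1a3*, *Aqp4*, *Gjb6* and *Sox9* were below both WT libraries in both libraries labelled KO (6 of 10 markers, 25.4% of all genes). *Gja1* alone was above both WT libraries in both (22.5% of all genes). The 10 cycling cell markers summed to 289 and 1432 against 3716 and 7261, with 10 of 10 higher. The 10 microglia markers summed to 2054 and 3342 against 984 and 465, with 8 of 10 lower. Cycling genes were thus higher, and microglia genes lower, in both libraries labelled KO. The 11 listed choroid plexus markers summed to 1536 and 2599 against 1233 and 850, and of the 10 tested 2 were lower (*Sostdc1*, *Otx2*) and 1 higher (*Enpp2*). These markers split between the libraries labelled KO, with 4 more than 2-fold lower and 5 more than 2-fold higher in replicate 2 than in replicate 1 (16.6% and 21.7% of all genes). *Ttr* was at 0 and 57.9 in WT against 1.07 and 470, and was most of the sum in replicate 2. *Folr1* (179 and 291 against 419 and 26.1) and *Cldn2* (329 and 751 against 380 and 32.4) were instead lowest in replicate 2, as was *Sostdc1* (907 and 1140 against 226 and 34.2). Sums of the meningeal fibroblast markers were 3308 to 3898 in WT against 2512 to 2726 (1 of 10 lower, 1 higher), and those of the endothelial and mural markers 2500 to 2745 against 1384 to 2332 (2 of 8 lower, 0 higher). Neuron markers summed to 3894 to 4488 against 4683 to 4814 (1 of 9 lower, 2 higher), and *Map2* and *Stmn2* were most of each sum. The median log2 fold change of the 9 was 1.66. Of them 4 were above both WT libraries in both libraries labelled KO (22.5% of all genes) and 1 below both (25.4%). Oligodendrocyte lineage markers summed to 11637 to 18396 against 11693 to 23150 (0 of 10 in either direction).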

How the data were processed

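Total RNA of 2 WT and 2 *tet1*-/- astrocyte cultures was sequenced as paired-end reads. Per the submitters' processing notes the build was mm10. The aligner, the counter, the use of strand and the annotation release are not given in the sources used here. The deposited table gives a signal per gene and library that the authors scaled: although named FPKM, its low values are whole multiples of 1 step per library, so it holds read counts divided by a size factor, with no correction for length. Dividing by that step gave whole reads for 100% of values (tolerance 0.01). Depth was 18749610 to 22673555 reads on genes, and 3 reads equal 2.70 to 3.21 normalized counts. The deposited table also holds other columns of gene position and length, the authors' means per label, and the authors' own log2 fold change and p-value columns, which hold their comparison and were not used.

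Genes with a mean of at least 1 were tested on log2(value + 1) with limma (version 3.58.1; lmFit and eBayes with trend), without a block, and Benjamini-Hochberg adjustment over 22094 genes. A fold change on this scale understates the change of low genes. edgeR (4.0.16, quasi-likelihood) and DESeq2 (1.42.0) on the recovered reads were alternatives, with a pseudocount of 0.1, a mean of at least 10, no filter, TMM scaling, quantile normalization, the replicate number as a block, and leaving out each library. The fit was tested on simulated data. Intervals are 95% exact (Clopper-Pearson) intervals of ratios of reads and cover counting error only. Single libraries were compared with no test. FPKM was computed from recovered reads, the gene lengths in the table and the reads on genes. Exon overlaps came from a GENCODE annotation of the same build and promoters from a RefSeq table.

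The members, gene lists, motifs and tests were chosen with earlier results of these data known. Named were every listed member, *Tet1* and, of each other pathway list, the 3 genes highest per length and up to 3 in each direction with the largest change at an unadjusted p under 0.05; marker lists are given mainly as sums. The labels name no batch shared by libraries with the same replicate number. Over all genes tested, departures from the group mean correlated at −0.084 between such libraries. A batch that touched only some genes was not tested. No library available here was left out.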

Additional observations from a re-analysis of the deposited data

How the results depend on the processing

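Few reads limit the lowest values: in labelled KO replicate 2, 5 of the 39 listed members had under 3 reads. Over the members, 0 adjusted calls were made under each alternative except DESeq2, which made 8. Leaving out 1 library gave 1 to 28 members lower at an unadjusted p under 0.05 and a median log2 fold change of −3.34 to −0.97. With the replicate block 19 members were lower, against 15 without it, and 0 passed adjustment. In this balanced design the block cannot alter a fold change, so the directions were the same by construction. TMM scaling gave 14 lower members, quantile normalization 10, a mean of at least 10, no filter or a pseudocount of 0.1 each 12, and the median over all genes was −0.11 with TMM and 0.06 after quantile normalization.

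Of the further axoneme genes, DESeq2 called 12 (0 by limma), 15 were lower after quantile normalization (26 before), and leaving out 1 library gave 4 to 41 lower and a median of −2.62 to −0.81. Of the multiciliation regulators DESeq2 called 2, and leaving out 1 library gave 1 to 6 lower, 0 to 1 higher and a median of −0.86 to 0.41. Of the primary cilium genes 1 was lower with edgeR and 1 after quantile normalization (2 by limma), and leaving out 1 library gave 0 to 11 lower, 0 to 1 higher and a median of −0.42 to 0.14.

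Between the libraries labelled KO, a mean of at least 10 left 0 members more than 2-fold higher in replicate 2. Past 4-fold, 24 were lower and 0 higher. Between the WT libraries 1 member was higher with a mean minimum of 10 and 1 with TMM, 3 with a pseudocount of 0.1, past 4-fold 1 was lower and 0 higher, and the median turned from 0.02 to −0.0029 with a mean of at least 10 and to −0.046 with TMM. The sign of 7 genes turned on a library labelled KO. Without replicate 1 and without replicate 2 the log2 fold changes were −2.32 and 0.0093 for *Foxj1*, −0.58 and 2.35 for *Mcidas*, −2.72 and 0.40 for *Myb*, −0.23 and 1.89 for *Ccno*, −0.71 and 0.78 for *Dnah7a*, −2.92 and 0.38 for *Rsph1* and −2.68 and 0.24 for *Drc1*. *Dnah7a* was at −0.0016 with TMM. The cause of these changes was not tested. Of 301 other gene values, 292 kept their direction and side of the threshold, 8 passed it with DESeq2 and 1 changed sign.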
